A study of Mus musculus with 9 samples.

Results

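Genes of neutrophils were followed through libraries of sorted brain cells from aged mice, with the 3 microglia libraries shown one by one. The set holds 37 genes that mark neutrophils or their precursors in the mouse. They were chosen by name, with earlier results of these data known. Each symbol matched 1 row of the deposited count table, and the table holds 24394 genes in all. Microglia (the resident macrophages of the brain), T cells and ILC2 (innate lymphoid cells of group 2, which make type 2 cytokines) came from brains of C57BL/6 mice at 20 to 22 months of age. Every mouse of all 3 groups had been injected with IL-33, an alarm cytokine that damaged tissue sets free, at 400 ng per day for 7 days. No untreated brain is among the samples, so no effect of IL-33 can be computed for these genes. Cells were sorted on surface markers that the labels do not name, and the labels do not say whether a library came from 1 mouse or from several. There are 3 microglia, 3 T cell and 2 ILC2 libraries, numbered in the order of the table's columns, and numbers do not pair libraries across groups. The labels list 3 ILC2 samples, and 1 of them could not be matched to a column by its heading and was not analysed here.

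Neutrophils are made in the bone marrow and fill their granules in order. Primary granules with myeloperoxidase and serine proteases are made first, in promyelocytes, then secondary granules with lactoferrin and lipocalin 2, then tertiary granules with gelatinase. Mature cells carry receptors for chemokines, for the growth factor G-CSF and for formylated bacterial peptides, and much of their cytosolic protein is calprotectin, the dimer of S100A8 and S100A9. In the brain, neutrophils are found mainly in vessels, meninges and the marrow of the skull, and few enter the tissue unless it is injured or infected. In libraries of bulk cells, counts on these genes from neutrophils within the sort and counts from the sorted cells themselves cannot be told apart, and neither can more cells of a type and more RNA per cell.

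Each library held between 8376609 and 13585956 counts on genes, and 11390 to 12620 genes had a count in a library. Homeostatic microglia genes followed the labels: all 12 on the list, Tmem119 and P2ry12 among them, were higher in microglia than in T cells and than in ILC2, with a summed level of 92850 to 121517 CPM (counts on a gene scaled to a common library size) in microglia and 2125 to 4373 CPM in the other libraries. All 7 T cell genes were lower in microglia than in T cells, and 7 of 8 ILC2 genes were lower in microglia than in ILC2. The biological coefficient of variation between libraries was 0.967, so that differences of a few fold are not resolved for most genes.

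The 37 genes took a large share of the microglia libraries and a small share of the others. They held 8.17% of the counts on genes in microglia 1 (95% Wilson interval 8.15% to 8.18%), 1.73% in microglia 2 (1.72% to 1.74%) and 10.12% in microglia 3 (10.11% to 10.14%). In T cells 1, 2 and 3 the shares were 0.0575% (0.0559% to 0.0591%), 0.108% (0.106% to 0.110%) and 0.171% (0.168% to 0.174%), and in ILC2 1 and 2 they were 0.0509% (0.0496% to 0.0523%) and 0.0643% (0.0629% to 0.0657%). These intervals cover counting error only, since amplified reads are not independent molecules. The lowest microglia library thus held a larger share than any lymphocyte library, and microglia 2 lay apart from microglia 1 and 3. S100a8 ranked number 3 and 2 among all genes in microglia 1 and 3 and number 31 in microglia 2. Lyz2 and Anxa1, which macrophages and other cells also express, did not carry the share: without them it was 7.43%, 1.32% and 9.33% in the 3 microglia libraries.

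**Figure D1:**
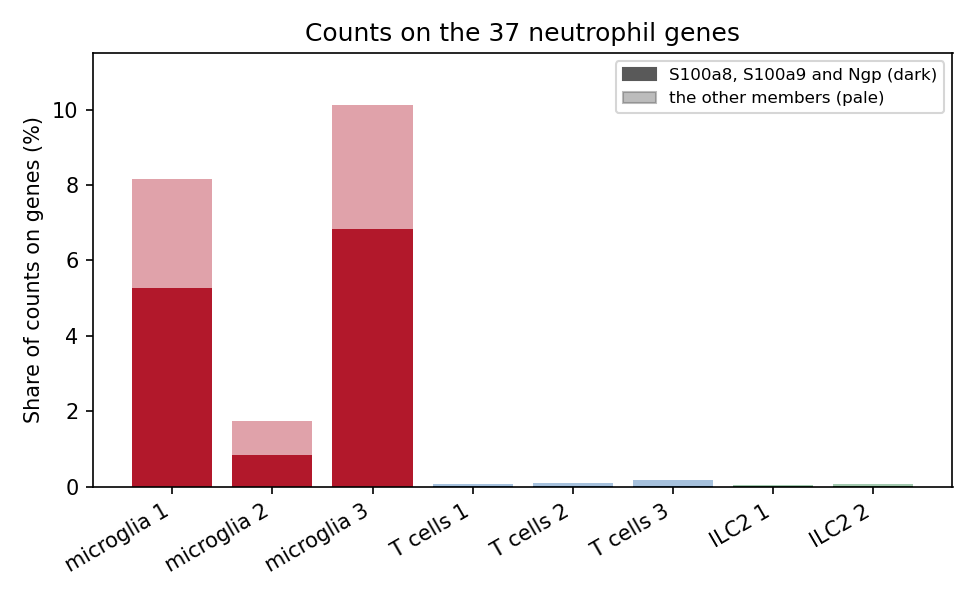
Share of each library's counts on genes (%, y axis) that fell on the 37 neutrophil genes, by library; dark bars are S100a8, S100a9 and Ngp and pale bars the other members. The 3 microglia libraries stand at 8.17%, 1.73% and 10.12%, and no T cell or ILC2 library passes 0.171%.

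Levels of single genes are given in CPM of the library size scaled by the TMM method, as the value of each library. A gene was called when edgeR's quasi-likelihood test, adjusted by Benjamini-Hochberg over all 13000 genes tested, gave an adjusted p under 0.05 and a log2 fold change of at least 1 in size. All 37 genes passed the filter of a mean count of 10, but genes with no count outside microglia passed it through microglia alone, so they had to be higher there. Of the 37, 25 were called higher in microglia than in T cells and none lower, where 7.13% of all genes tested were called higher and 5.91% lower. Against ILC2, 22 were called higher and none lower, where 4.76% of all genes were called higher and 4.99% lower. The median log2 fold change of the 37 was 8.22 against T cells and 9.41 against ILC2, beside -0.0040 and 0.0089 over all genes tested. The set was chosen with earlier results of these data known, so these counts and medians are not independent of that choice. Both comparisons use the same microglia libraries, so they are not independent of each other, and 20 genes were called in both. Every microglia library lay above every T cell library in 30 of the 37 genes and above both ILC2 libraries in 31, as in 18.7% and 21.1% of all genes tested. Sample titles carry replicate numbers but do not say that the libraries of a group came from separate animals. The p-values therefore measure the spread between libraries, which may be technical.

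**Figure D2:**
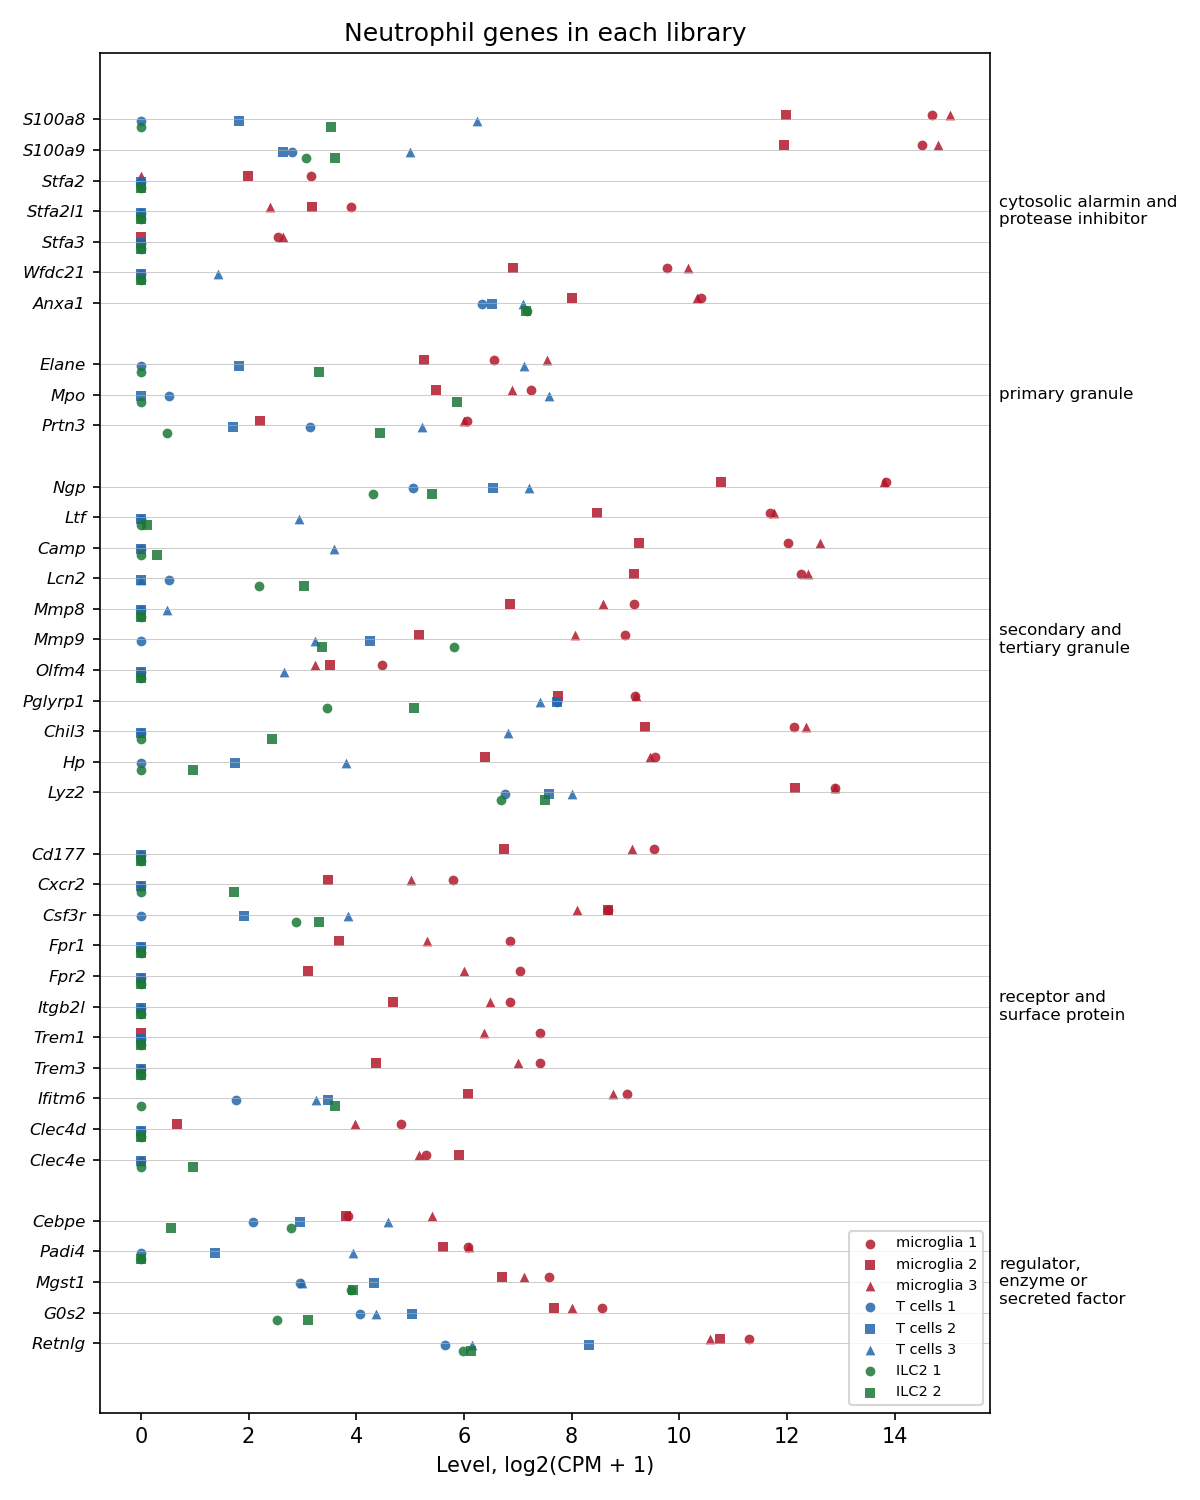
Level of each neutrophil gene as log2(CPM + 1) on the x axis, by role on the y axis; each point is 1 library, colour gives the population and shape the library number. Microglia points lie to the right for most genes, with the square of microglia 2 left of microglia 1 and 3 in many. In Elane, Prtn3 and Cebpe the triangle of T cells 3 lies among the microglia points, and in Mpo it lies to the right of them.

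The calprotectin genes took more counts than any other member in microglia 1 and 3, and in microglia 2 they came after Lyz2. S100a8 was at 26452, 4072 and 33382 CPM in microglia 1, 2 and 3, at 0, 2.55 and 74.5 CPM in T cells 1, 2 and 3, and at 0 and 10.6 CPM in ILC2 1 and 2. S100a9 was at 23278, 3924 and 28771 CPM in microglia, at 5.97, 5.24 and 30.9 CPM in T cells, and at 7.43 and 11.2 CPM in ILC2. For both genes every microglia library lay far above every lymphocyte library. S100a9 had a log2 fold change of 10.38 ± 1.15 (SE) against T cells (adjusted p = 0.000417) and 10.97 ± 1.43 against ILC2 (adjusted p = 0.00129). S100a8 had 9.70 ± 2.40 (adjusted p = 0.0266) and 11.96 ± 3.17 (adjusted p = 0.0425). The ratio of S100a8 to S100a9 counts was alike in the microglia libraries, at 1.14, 1.04 and 1.16. The 2 genes lie next to each other on chromosome 3 of build mm10 (GRCm38), S100a8 from 90668978 to 90670035 and S100a9 from 90692632 to 90695721, with 22596 bases between them, both annotated as protein coding.

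Calls of S100a8 rested on single libraries. Against T cells its call was lost without T cells 2 (adjusted p = 0.0734), microglia 1 (0.0519) or microglia 3 (0.0561), and against ILC2 without any 1 of the 5 libraries (0.0571 to 0.151). Without T cells 3 the log2 fold change of S100a8 rose to 13.87 and that of S100a9 to 11.64. Without ILC2 2 the value of S100a8 became 20.81, set by a small prior count since ILC2 1 had none, and without ILC2 1 it was 10.92. With limma-voom neither gene was called, at an adjusted p of 0.220 and 0.0583 against T cells and 0.357 and 0.131 against ILC2.

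Of the 7 members grouped here with the alarmins and protease inhibitors, S100a8, S100a9, Wfdc21 and Anxa1 were called in both comparisons. Wfdc21, which encodes a protein with a WAP domain, was at 869, 119 and 1150 CPM in microglia, with 17 counts in T cells 3 (1.69 CPM) and none in the other lymphocyte libraries. It was called against T cells (log2 fold change 10.35 ± 1.55, adjusted p = 0.00292) and was at least 2968-fold higher than in ILC2, taking a floor of 3 counts per library (adjusted p = 0.00553). Without T cells 3 its log2 fold change was 15.94, set by the prior count, and limma-voom did not call it (adjusted p = 0.0573 against T cells and 0.0911 against ILC2). Anxa1 encodes annexin A1, a protein that restrains neutrophil adhesion and is made by many leukocytes. Its levels were 1351, 258 and 1288 CPM in microglia, 80.0 to 135 CPM in T cells and 142.5 and 140.8 CPM in ILC2. The log2 fold change was 3.24 ± 0.56 against T cells (adjusted p = 0.00476) and 2.77 ± 0.65 against ILC2 (adjusted p = 0.0257), the latter lost without microglia 1 (0.0654), microglia 3 (0.0676), ILC2 1 (0.132) or ILC2 2 (0.159). The stefin A genes Stfa2, Stfa2l1 and Stfa3, inhibitors of cysteine proteases, had counts in microglia only, at no more than 13.95 CPM, and none was called. Stfa2l1 was at 13.95, 8.10 and 4.27 CPM (adjusted p = 0.0517 against T cells), and passed there in 5 other settings (0.00184 to 0.0487). Stefin A genes are near-identical copies in a cluster on chromosome 16, so reads may be split between them.

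The primary granule genes, made at the promyelocyte stage, were not called in any comparison. Mpo, myeloperoxidase, was at 151, 43.7 and 118 CPM in microglia, at 0.434, 0 and 191 CPM in T cells, and at 0 and 57.7 CPM in ILC2. Elane, neutrophil elastase, was at 93.7, 37.4 and 186 CPM in microglia, at 0, 2.55 and 138 CPM in T cells, and at 0 and 8.96 CPM in ILC2. Prtn3, proteinase 3, was at 65.2, 3.66 and 63.2 CPM in microglia, at 7.81, 2.27 and 36.2 CPM in T cells, and at 0.404 and 20.7 CPM in ILC2. T cells 3 and ILC2 2 thus stood above the other libraries of their groups for all 3 genes, and the level of Mpo in T cells 3 was above that of each microglia library. The log2 fold changes against T cells were 0.71 ± 2.11 for Mpo, 1.18 ± 1.85 for Elane and 1.51 ± 1.43 for Prtn3 (adjusted p = 0.888, 0.755 and 0.557). Without T cells 3 the values became 8.98, 6.26 and 3.07, still with no call (adjusted p = 0.0637, 0.102 and 0.292).

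Most secondary and tertiary granule genes were far higher in microglia than in lymphocytes. Of 11, 7 were called against T cells and 8 against ILC2. Ngp, neutrophilic granule protein, was at 14633, 1761 and 14233 CPM in microglia, at 32.3, 92.3 and 148 CPM in T cells and at 18.8 and 41.2 CPM in ILC2. Its log2 fold change was 6.81 ± 0.94 against T cells (adjusted p = 0.00133) and 8.41 ± 1.23 against ILC2 (adjusted p = 0.00223; 9.08 without ILC2 2). Ltf, the iron-binding lactoferrin, was at 3283, 357 and 3490 CPM in microglia, with 67 counts in T cells, all in T cells 3, and 1 count in ILC2. Camp, the antimicrobial peptide precursor cathelicidin, was at 4152, 609 and 6284 CPM in microglia, with 111 counts in T cells 3, none in the other T cell libraries and 3 in ILC2. Lcn2, lipocalin 2, which binds bacterial siderophores, was at 4938, 572 and 5400 CPM in microglia, with 4 counts in T cells and 3.55 and 7.14 CPM in ILC2. For these 4 genes microglia 2 was the lowest microglia library by several fold and still above every lymphocyte library.

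Against T cells the log2 fold change was 10.08 ± 1.83 for Ltf (adjusted p = 0.00612), 9.98 ± 1.98 for Camp (0.00969) and 14.72 ± 1.40 for Lcn2 (0.000174). Against ILC2, Ltf was 59398-fold higher (95% counting interval 10661 to 2346089, from 1 ILC2 count) and Camp 30670-fold (10495 to 148723, from 3 counts), with adjusted p of 0.00857 and 0.0126, and Lcn2 had a log2 fold change of 9.41 ± 1.34 (0.00202). All 3 genes kept their call against T cells when any 1 library was left out. Their size there hung on few counts: without T cells 3 it became 17.68 for Ltf and 18.31 for Camp, without T cells 1 it became 18.33 for Lcn2, all set by the prior count, without T cells 2 it was 14.08 for Lcn2, and without microglia 3 it was 9.35 for Camp. Against ILC2, the calls of Ltf and Camp were lost without ILC2 1 (adjusted p = 0.0716 and 0.0926, log2 fold changes 14.63 and 13.80) or ILC2 2 (0.0882 and 0.104, 17.65 and 18.28), the value of Camp was 14.15 without microglia 3, and that of Lcn2 was 9.995 without ILC2 2. limma-voom called none of the 3 (adjusted p = 0.111 to 0.124 against T cells and 0.191 to 0.213 against ILC2).

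Of the other granule genes, Mmp8 and Hp were called against both lymphocyte groups. Mmp8, neutrophil collagenase, was at 570, 114 and 384 CPM in microglia, with 4 counts in T cells and none in ILC2, at least 1483-fold lower. It kept its call in every setting tried in both comparisons (adjusted p = 0.000435 and 0.00112), and its log2 fold change of 11.38 against T cells was 10.77 without T cells 2 and 14.94 without T cells 3. Mmp9, the gelatinase of tertiary granules, was at 509, 34.7 and 268 CPM in microglia, up to 18.2 CPM in T cells and at 55.7 and 9.36 CPM in ILC2, so that microglia and ILC2 overlapped, and it was not called (adjusted p = 0.0581 and 0.288). Chil3, the chitinase-like protein Ym1, which some macrophages also make, was at 4462, 658 and 5265 CPM in microglia, with 111 CPM in T cells 3 alone among T cells and 4.44 CPM in ILC2 2, and was not called (adjusted p = 0.103 and 0.0883). Hp, haptoglobin, was at 751, 83.3 and 702 CPM in microglia and at most 12.95 CPM elsewhere. It was called against both groups (adjusted p = 0.0210 and 0.0201). Hp lost its call without T cells 2 (0.0697), microglia 1 (0.0503) or microglia 3 (0.0527) against T cells and without ILC2 1 (0.108) or ILC2 2 (0.0858) against ILC2, and with limma-voom (0.106 and 0.142). Its log2 fold change of 6.65 against T cells became 8.62 without T cells 3, and that of 10.03 against ILC2 became 9.01 without ILC2 1 and 15.44 without ILC2 2. Olfm4, olfactomedin 4, did not pass 21.2 CPM in any library and was not called.

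Of the granule genes, Pglyrp1 (197.5 CPM) and Lyz2 (184.6 CPM) had the highest mean levels in T cells, before Ngp (90.8 CPM). Pglyrp1, a peptidoglycan recognition protein, was at 582, 214 and 590 CPM in microglia, at 210.5, 212.5 and 170 CPM in T cells, and at 10.02 and 32.5 CPM in ILC2. Microglia 2 and T cells 2 thus stood at nearly the same level, and the gene was not called between microglia and T cells (log2 fold change 1.22 ± 0.49, adjusted p = 0.134). It was the only member called between T cells and ILC2, higher in T cells by 3.21 ± 0.62 on the log2 scale (adjusted p = 0.0491), where 0.492% of all genes were called in that direction and 0.431% in the other. Every T cell library lay above both ILC2 libraries in 2 of the 37 genes, as in 11.8% of all genes tested. Lcn2, lower in T cells than in ILC2, was called with DESeq2 and with no filter on low counts (lowest adjusted p 0.00631), but not in the edgeR fit given here (0.107). The call of Pglyrp1 was lost in 7 of the other settings, among them without any 1 of the 5 libraries (highest adjusted p 0.183). Against ILC2, microglia were higher by 4.44 ± 0.66 (adjusted p = 0.00251; 3.78 without ILC2 1 and 5.53 without ILC2 2). Lyz2, lysozyme M, which microglia and macrophages also express, was at 7652, 4558 and 7618 CPM in microglia, at 107 to 257 CPM in T cells and at 102 and 181 CPM in ILC2. Its call held in every setting tried (adjusted p = 0.000112 and 0.000317), and its near-identical neighbour Lyz1 may share reads with it.

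All 11 receptors and surface proteins were called higher in microglia than in T cells, where 7.13% of all genes tested were. Of the 11, 9 had no count in any T cell library and so could only be higher in microglia, and the calls of Trem1, Ifitm6, Clec4d and Cxcr2 were lost on leaving out 1 library. Against ILC2 6 of the 11 were called, where 4.76% of all genes were. Of these 6, all but Csf3r had no count in ILC2 or in T cells, and so could only be higher in microglia. Cd177, a surface glycoprotein of neutrophils, was at 738, 107 and 553 CPM in microglia with no count in any of the 5 lymphocyte libraries, at least 1682-fold lower in T cells and 1941-fold in ILC2 (adjusted p = 0.000774 and 0.00218). Trem3, an activating receptor of mouse myeloid cells, was at 169, 19.7 and 128 CPM with no lymphocyte count, and Itgb2l, a beta 2-like integrin, at 115, 24.8 and 89.1 CPM with none. Cd177, Trem3 and Itgb2l kept their calls in every setting tried. The formyl peptide receptor genes Fpr1 (114, 11.8 and 38.6 CPM) and Fpr2 (131, 7.61 and 63.2 CPM) had no lymphocyte count either, and their calls against ILC2 (adjusted p = 0.0143 and 0.0165) were lost without microglia 1 (0.0664 and 0.0571), ILC2 1 (0.0584 and 0.0674) or ILC2 2 (0.0755 and 0.0877). Fpr1 was at least 198-fold and Fpr2 at least 242-fold higher than in T cells, which became 90.8-fold and 128-fold without microglia 1, and the bounds against ILC2 of 229-fold and 280-fold became 105-fold and 147-fold. In all of these genes microglia 2 was the lowest microglia library. Fpr1 and Fpr2 lie 3883 bases apart on chromosome 17 and Trem1 and Trem3 852 bases apart on the same chromosome, and reads shared between these paralogs cannot be assigned here.

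Trem1, which amplifies inflammatory signals in neutrophils and monocytes, was at 169 and 81.4 CPM in microglia 1 and 3 and had no count in microglia 2 or in any lymphocyte library. Microglia and T cells therefore overlapped at 0, although it was called (at least 301-fold, adjusted p = 0.0441). The bound was 147-fold without microglia 1 and 451-fold without microglia 2. The call was lost without any T cell library (0.0857 to 0.0934), without microglia 1 (0.104) or microglia 3 (0.0946), in a fit of the 2 groups alone (0.0520) and with limma-voom (0.157). Cxcr2, the receptor of neutrophil-attracting chemokines, was at 54.6, 10.1 and 31.3 CPM in microglia, with no count in T cells and 2.30 CPM in ILC2 2. Against T cells it was at least 115-fold higher (adjusted p = 0.0206), at least 74.6-fold without microglia 1 (0.0647) and with no call without microglia 3 (0.0532), and it was not called against ILC2 (adjusted p = 0.202). Clec4d, a C-type lectin receptor, was at 27.6, 0.593 and 14.7 CPM with no lymphocyte count. It was at least 51.6-fold higher than in T cells, and 27.6-fold without microglia 1. Its call against T cells (adjusted p = 0.0486) was lost without any library but microglia 2 (0.0879 to 0.145). Ifitm6, a membrane protein of the interferon-induced family, was at 525, 66.7 and 437 CPM in microglia, up to 10.1 CPM in T cells and 11.1 CPM in ILC2. Its call against T cells (adjusted p = 0.0274) was also lost without any library but microglia 2 (0.0664 to 0.0864) and with limma-voom (0.0808).

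Csf3r and Clec4e differed from the other receptors in their levels across the microglia libraries. Csf3r, the receptor of G-CSF, was at 408, 407 and 273 CPM in microglia, at 0, 2.76 and 13.4 CPM in T cells and at 6.38 and 8.88 CPM in ILC2. Its log2 fold change was 6.08 ± 1.21 against T cells (adjusted p = 0.00993; 7.89 without T cells 3) and 5.57 ± 1.42 against ILC2 (adjusted p = 0.0366), the latter lost without any 1 library (0.0662 to 0.194). Clec4e, the receptor Mincle, which binds mycobacterial and damaged-cell glycolipids, was at 38.1, 58.9 and 34.8 CPM in microglia, with 12 counts in ILC2 2 and none in the other lymphocyte libraries. Against T cells it was at least 159-fold higher (adjusted p = 0.00718). Against ILC2 it was not called (adjusted p = 0.0597), and it passed there in 5 other settings. In neither gene was microglia 2 the lowest microglia library.

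Of 5 regulators, enzymes and secreted factors, 3 were called against T cells and 4 against ILC2. Retnlg, resistin-like gamma, a secreted protein of neutrophils, was at 2514, 1739 and 1519 CPM in microglia, at 49.5, 318.5 and 69.8 CPM in T cells and at 62.4 and 69.2 CPM in ILC2. Its log2 fold change was 3.72 ± 0.67 against T cells (adjusted p = 0.00574; 5.10 without T cells 2) and 4.87 ± 0.84 against ILC2 (adjusted p = 0.00588; 0.0552 without ILC2 1 and 0.0642 without ILC2 2). G0s2, an inhibitor of triglyceride breakdown, was at 379, 204 and 255 CPM in microglia, 15.7 to 31.7 CPM in T cells and 4.77 and 7.61 CPM in ILC2, and its calls held in every setting tried (adjusted p = 0.000573 and 0.000411). Mgst1, a microsomal glutathione transferase found in many cell types, was at 190, 103 and 138 CPM in microglia and at most 19.02 CPM elsewhere (adjusted p = 0.00178 and 0.00909). Against ILC2 its call was lost without ILC2 1 (0.0643) or ILC2 2 (0.0717), and against T cells its log2 fold change of 3.71 became 4.48 without T cells 2. For each of Retnlg, G0s2 and Mgst1 the 3 microglia libraries lay within 2-fold of each other. Padi4, the enzyme that citrullinates histones in neutrophils, was at 66.3, 48.1 and 67.2 CPM in microglia, up to 14.3 CPM in T cells and without a count in ILC2. It was called against ILC2 only (adjusted p = 0.0300), and lost that call without any 1 library (0.0584 to 0.151). Cebpe, a transcription factor needed for secondary granules, was at 13.3, 13.04 and 41.3 CPM in microglia, with 23.01 CPM in T cells 3, and was not called.

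The genes fell into groups by how they differed between the microglia libraries. Microglia 2 was the lowest of the 3 in 31 of the 37 genes, as it was in 26.3% of all genes tested. In 18 genes its level was at or under 0.2 of that in both microglia 1 and microglia 3, as in 5.38% of all genes. The median ratio to microglia 2 was 5.42 in microglia 1 and 4.98 in microglia 3, beside 0.911 and 0.914 over all genes tested. Between microglia 1 and 3, 30 of the 37 genes lay within 2-fold of each other. The ratio of microglia 3 to microglia 1 had a median of 0.833 and ran from 0 to 3.09. The share of all genes tested within 2-fold was not computed. The 6 genes that were not lowest in microglia 2 were Clec4e, Csf3r, Retnlg, Stfa2, Stfa2l1 and Olfm4. No test sets 1 library against the others, so these are descriptions of single libraries.

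**Figure D3:**
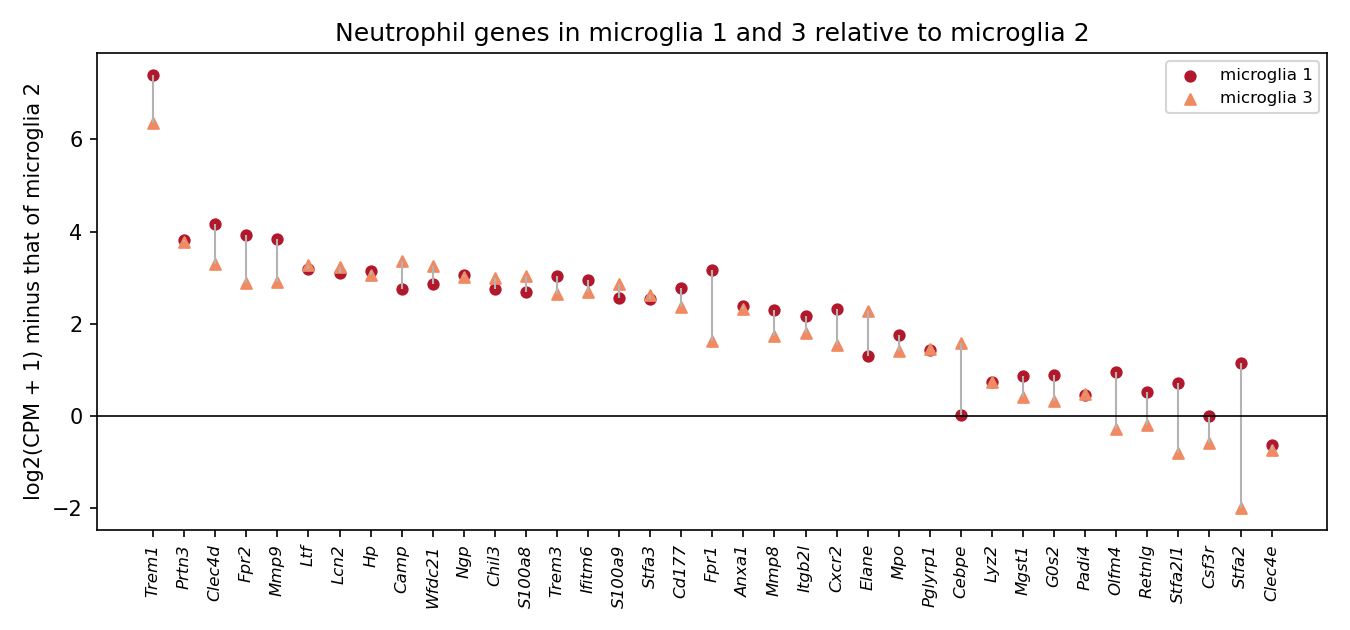
Difference in log2(CPM + 1) between microglia 1 (circles) or microglia 3 (triangles) and microglia 2 on the y axis, for the 37 neutrophil genes on the x axis, ordered by the mean difference. Most genes lie well above 0, while Retnlg, Stfa2l1, Csf3r, Stfa2 and Clec4e at the right end have a mean near or under it. In Stfa2 and Stfa2l1 the circle lies above 0 and the triangle under it.

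Marker lists of other cells differed in how they were spread over the microglia libraries. Homeostatic microglia genes were highest in microglia 2 in 11 of 12 cases. Border macrophage genes summed to 408, 398 and 430 CPM and monocyte genes to 1299, 990 and 1185 CPM in microglia 1, 2 and 3. Among monocyte genes, Ly6c2 was at 525, 201 and 523 CPM, and Ccr2, a chemokine receptor of inflammatory monocytes, at 84.3, 6.72 and 39.9 CPM. Both were higher in each T cell library, at 1044 to 2217 and 169 to 236 CPM. Of the 11 monocyte genes 5 were lowest in microglia 2 and 2 highest there, Clec4a3 (302, 437 and 291 CPM) and Ms4a4c (24.6, 46.5 and 33.1 CPM). Erythroid genes, which would come with blood, summed to 172, 46.4 and 178 CPM, with Alas2 at 138, 21.6 and 95.2 CPM. They summed to 80.3, 116 and 102 CPM in T cells and to 61.7 and 182 CPM in ILC2, so that ILC2 2 was above every microglia library. The 4 globin genes on the list had no count in any library, and whether reads on them were lost in processing was not tested. Eosinophil genes summed to 1522, 1187 and 49.1 CPM, so that microglia 3, the highest library in neutrophil genes, was the lowest in those. Of 7 cycling progenitor genes 5 were lowest in microglia 2, among them Cdk1, a cell cycle kinase, at 22.5, 11.1 and 53.6 CPM and Myb, a transcription factor of blood progenitors, at 15.6, 0 and 23.0 CPM. Cd34, the highest of the 7, was at 723, 608 and 345 CPM. The list summed to 826, 641 and 503 CPM, lowest in microglia 3. Like the erythroid sum, the border macrophage and monocyte sums were lowest in microglia 2, by a far smaller ratio than the neutrophil genes. Within the microglia libraries, Ly6c2, Ccr2, the erythroid sum and 5 of 7 cycling progenitor genes were thus lowest where most neutrophil genes were. Other genes of the same lists and the cycling progenitor sum were not. The part of these lists in the result was not tested.

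**Figure D4:**
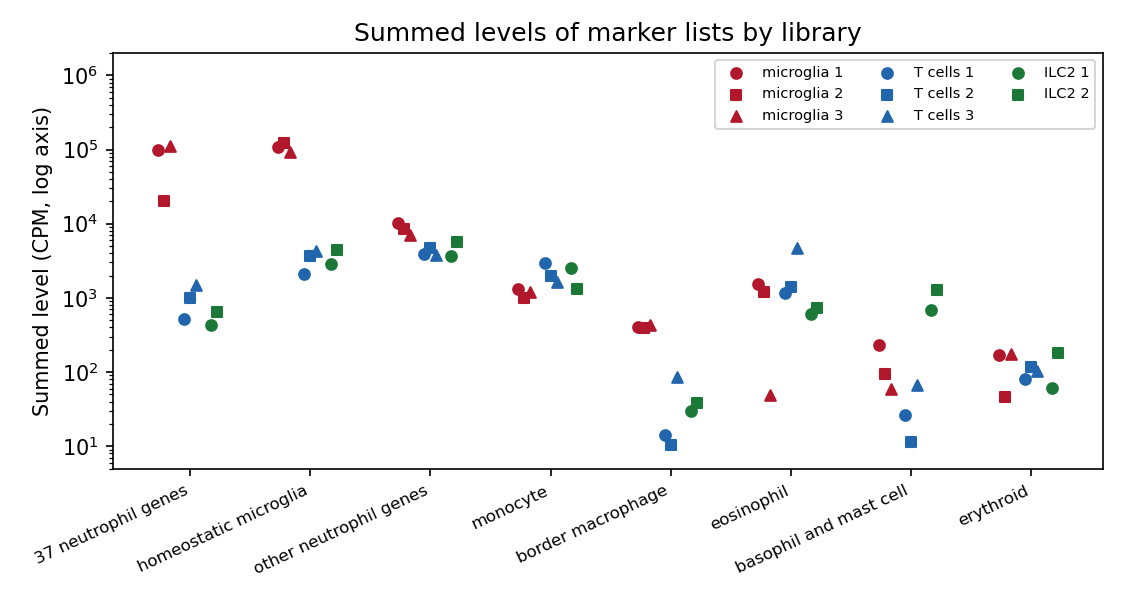
Summed level (CPM, log y axis) of the 37 neutrophil genes and of 7 marker lists in each library; colour gives the population and shape the library number. Microglia 2 lies apart from the other microglia libraries in the neutrophil and erythroid sums, and microglia 3 in the eosinophil sum.

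The stretches upstream of 4 members are printed, picked among those with a C/EBP match and no overlap with an exon. S100a9 and Mmp8 were lowest in microglia 2 by several fold, and Clec4e and Retnlg were not lowest there. Each is the 250 bases before the start of the gene in RefSeq on GRCm38.p6, 5′ to 3′ on the gene's strand, and none overlaps an annotated exon. Capitals mark matches to TTGCNNAA, a form of the site bound by C/EBP factors, or to GAGGAAGT, a form of the PU.1 site, each searched on both strands. The sequences lie at chr3:90695722-90695971 (minus strand) for S100a9, chr9:7558179-7558428 (plus) for Mmp8, chr6:123289872-123290121 (minus) for Clec4e and chr16:48872358-48872607 (plus) for Retnlg.
S100a9: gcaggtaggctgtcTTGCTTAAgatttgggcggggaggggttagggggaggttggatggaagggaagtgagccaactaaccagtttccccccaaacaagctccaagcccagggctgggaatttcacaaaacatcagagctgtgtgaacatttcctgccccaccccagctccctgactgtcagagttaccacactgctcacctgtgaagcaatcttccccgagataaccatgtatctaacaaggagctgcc
Mmp8: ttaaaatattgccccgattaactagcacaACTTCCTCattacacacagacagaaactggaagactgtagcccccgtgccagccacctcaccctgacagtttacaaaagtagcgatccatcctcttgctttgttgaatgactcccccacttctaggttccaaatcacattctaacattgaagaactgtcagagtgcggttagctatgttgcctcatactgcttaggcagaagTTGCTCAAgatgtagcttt
Clec4e: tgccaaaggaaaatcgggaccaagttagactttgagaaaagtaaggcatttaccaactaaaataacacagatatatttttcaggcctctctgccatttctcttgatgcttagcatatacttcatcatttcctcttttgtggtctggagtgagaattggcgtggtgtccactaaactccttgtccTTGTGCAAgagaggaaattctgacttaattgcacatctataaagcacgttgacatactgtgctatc
Retnlg: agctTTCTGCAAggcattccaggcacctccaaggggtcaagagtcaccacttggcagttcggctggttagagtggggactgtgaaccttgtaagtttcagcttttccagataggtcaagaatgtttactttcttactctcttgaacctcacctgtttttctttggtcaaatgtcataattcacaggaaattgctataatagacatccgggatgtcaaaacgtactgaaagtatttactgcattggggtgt
S100a9, Clec4e and Retnlg each held 1 C/EBP match, and Mmp8 held 1 of each motif, with no overlap between them. RefSeq gave an upstream window for 32 of the 37 genes. Of these 32, 9 held the C/EBP letters (28.1%) and 7 the PU.1 letters (21.9%), where 9.56% and 2.44% of all 32851 windows held them. The windows printed are those with the C/EBP letters and no exon overlap, so they are not typical of the 32. Among the other genes not lowest in microglia 2, Csf3r, Stfa2 and Stfa2l1 held neither motif, and Olfm4 held the PU.1 letters only. A match is only a run of letters, and nothing is drawn from it about the factors.

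Counts on neutrophil genes outside microglia were spread unevenly. Of the 25 genes with a count in T cells, 18 were highest in T cells 3, where 33.6% of all genes tested were, and 12 of the 37 had no T cell count. Summed over the set, T cells 1, 2 and 3 stood at 523, 1009 and 1493 CPM and ILC2 1 and 2 at 434 and 641 CPM. Lyz2, Pglyrp1, Retnlg and Anxa1 made up most of the sum in T cells 1 and 2, whereas T cells 3 also held Mpo, Elane, Chil3 and S100a8. In ILC2 1, 13 members had a count, and in ILC2 2 23 had one. T cells 3 was also the highest T cell library in 7 of 8 eosinophil genes and 7 of 12 homeostatic microglia genes, with sums of 4744 and 4344 CPM beside 1178 and 1417 CPM and 2125 and 3695 CPM in T cells 1 and 2, and their part in the neutrophil counts was not tested.

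A list of 40 other genes linked to neutrophils, many of them shared with macrophages or other leukocytes, showed a weaker difference. Of 39 tested, 13 were higher and 1 lower in microglia than in T cells (7.13% of all genes were higher), and 12 were higher and 2 lower against ILC2 (4.76%), with median log2 fold changes of 3.16 and 3.25. The other one, Ly6g, the usual surface marker of mouse neutrophils, was not analysed here. Ccl6, a chemokine, was at 2464, 3180 and 660 CPM in microglia (adjusted p = 0.0149 against T cells), Ncf1, a subunit of the NADPH oxidase, at 1009, 660 and 737 CPM (0.000114), and Itgam, which encodes CD11b, at 750, 925 and 683 CPM (0.000242). S100a6, a calcium-binding protein of many cell types, was lower in microglia than in both lymphocyte groups (log2 fold change -2.02 ± 0.45 against T cells, adjusted p = 0.0165). Microglia 2 was the lowest microglia library in 25 of the 39, S100a6 among them (652, 197 and 459 CPM). Lrg1 (265, 17.4 and 187.5 CPM), Chil1 (149.5, 6.52 and 147 CPM) and Fcnb (120, 10.7 and 167 CPM) were also among these 25. Microglia 2 was the highest in 8 of the 39, Ccl6 and Itgam among them. Among 9 neutrophil chemoattractants and growth factors, Cxcl2 (244, 126 and 95.6 CPM in microglia, adjusted p = 0.00133) and Ccl3 (1742, 1649 and 1392 CPM, adjusted p = 0.000223) were higher than in T cells and Il17a was lower. Csf3, the gene of G-CSF, had no count in any library.

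Set per kilobase of exon in GENCODE M21, so that genes can be compared, the order in microglia was led by S100a9 (35743 CPM per kb, mean of 3 libraries) and S100a8 (30695), then Ngp (8354), Lyz2 (5022), Camp (4857), Retnlg (3244), Chil3 (2121), Wfdc21 (1642) and Lcn2 (1386). Apart from S100a8 and Ngp, neighbours among these 9 genes differed by less than the larger of their SDs over the microglia libraries. These SDs hold the drop in microglia 2 that most of the genes share, so they do not measure order within a library. In each microglia library S100a9 stood above S100a8, S100a8 above Ngp, Chil3 above Wfdc21 and Wfdc21 above Lcn2. The other neighbours changed order between libraries, and no order was tested. In microglia 2 alone, Lyz2 (3464 CPM per kb) and Retnlg (2933) stood above Ngp (1441), and Retnlg above Camp (803). Lyz2 stood above Camp there and in microglia 1 (5815 against 5477 CPM per kb). The primary granule genes stood at 25.4 to 107 CPM per kb, and the lowest were Olfm4 (4.51), Stfa2 (7.68) and Stfa3 (8.14).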

How the data were processed

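RNA of sorted brain cells was sequenced as single-end reads of 75 bases after Trizol-LS extraction, per the labels. The deposited table holds whole-number counts per gene. The submitters' processing notes list STAR 2.5.3a, DESeq2 1.1, Cufflinks 2.0, bcl2fastq 2.20.0.422, FastQC 1.0.0 and the build mm10, and the counting program and strand setting are not given in the sources used here. Of 9 library columns, 8 were matched to samples by heading, and 1, whose heading names a population that no label gives, was not used. Rows of reads outside genes (53.8% to 61.0% of a library), of ambiguous reads (0.338% to 1.23%) and 27 rows whose names had been turned into dates (0.0425% to 0.102%) were left out, which left 24394 genes.

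The counts were fitted with edgeR 4.0.16 in R 4.3.3 (TMM scaling, quasi-likelihood F test) over all 8 libraries for the 13000 genes whose mean count reached 10, and p-values were adjusted by Benjamini-Hochberg over all of them. SE was taken as |log2 fold change| over root F. A group with no count was set to a floor of 3 counts per library (0.207 to 0.326 CPM) for a lower bound. Floors and intervals cover counting error only. Alternatives were DESeq2 1.42.0, limma-voom (limma 3.58.1), size factors of the DESeq2 kind, no filter, the compared groups alone and leaving out each library. The fit was tested on simulated data. Coordinates and exon lengths are from GENCODE M21 (GRCm38). All members were named. For the companion lists a rule of level and call was set, but not every gene it gave is printed. Other genes, among them Tmem119, Alas2, Cdk1, Myb, Prg2 and Epx, are printed outside that rule. The members and lists were chosen with earlier results of these data known.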

Additional observations from a re-analysis of the deposited data

How the results depend on the processing

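None of the 37 genes changed direction between microglia and T cells or between microglia and ILC2 under the settings tried. Between T cells and ILC2, 11 genes changed sign in at least 1 setting (15 values in all), none with a call. The count called higher in microglia than in T cells (25) was 19 to 28 in all other settings, 19 to 26 of these on leaving out 1 library. Against ILC2 (22) it was 18 to 29 with other tools and filters, but 11 to 20 on leaving out 1 library, with 11 without ILC2 1 and 13 without ILC2 2. Calls held in every setting for 14 of the 25 genes and for 8 of the 22. The count called higher in T cells than in ILC2 (1) was 2 with DESeq2, 0 with size factors of the DESeq2 kind, 0 with limma-voom and 0 to 0 on leaving out 1 library. Over all genes, 927 were higher in microglia than in T cells, 1611 with DESeq2, 1470 with limma-voom and 591 to 775 on leaving out 1 library. Against ILC2 619 were, 1378 with DESeq2, 1061 with limma-voom and 369 to 438 on leaving out 1 library. Leaving out a library leaves fewer samples, and the cause of the other moves was not tested. No paired analysis was possible because the columns of the count table carry no replicate numbers.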

Other observations

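Eosinophil genes were spread over the libraries in another way than neutrophil genes. Prg2, the eosinophil major basic protein, was at 1055, 664 and 0 CPM in microglia 1, 2 and 3, at 912, 988 and 3110 CPM in T cells and at 376 and 531 CPM in ILC2. Epx, eosinophil peroxidase, was at 94, 75 and 0 CPM in microglia, at 87, 111 and 654 CPM in T cells and at 88 and 28 CPM in ILC2. Both had no count in microglia 3, and none of the 8 eosinophil genes was called between microglia and either lymphocyte group. Ctsg, cathepsin G, a primary granule protease that is not one of the 37 genes and was picked after its values were seen, was at 18.7, 0 and 16.7 CPM in microglia, at 0, 0 and 21.0 CPM in T cells and at 1.62 and 28.9 CPM in ILC2.

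By the root mean square difference of centred log2(CPM + 1) over the 8 libraries, which share their depth and scaling, the profiles nearest to the mean of S100a8 and S100a9 were those of other members: Camp (0.574), Ltf (0.761), Chil3 (1.18), Wfdc21 (1.42) and Cd177 (1.74). With S100a8 and S100a9 themselves counted, 11 members were among the 30 nearest profiles. The other members ranked from 33 (Trem3) to 1950 (Stfa2) among the genes tested, behind genes outside the set. The nearest genes outside the set were Mertk (2.21), Il1b (2.23), Tlr13 (2.32) and Tmem119 (2.33). Mertk, Tlr13 and Tmem119 were highest in microglia 2, unlike S100a8 and S100a9, and Il1b was lowest there.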
